A study of Mus musculus with 9 samples.

Results

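Genes for enzymes that break down amino acids were examined in mouse kidneys as a set of 37 genes, taken by name from a table of 34310 genes. All 37 were in the table and all passed the filter on low values. Of these, 16 act on the branched-chain amino acids leucine, isoleucine and valine, 7 on glycine and sarcosine, 4 on proline and ornithine and 4 on aromatic amino acids. The other 6 move amino groups between molecules or oxidise amino acids and hydroxy acids. Poly(A) RNA of fresh kidney was sequenced from 3 mice in each of 3 groups. One group received LPS together with Tβ4 (LPS+Tβ4), one received LPS, and one received saline. LPS is the lipopolysaccharide of the bacterial outer membrane, given to animals as a model of sepsis. Tβ4 is thymosin β4, a small peptide known for binding actin monomers, and the study set out to ask about kidney injury in that model. The labels do not state dose, route and time of treatment, the strain, sex and age of the mice, or a vehicle given to the LPS group in place of the peptide.

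Kidney proximal tubule cells reabsorb the amino acids of the filtrate, and their mitochondria and peroxisomes carry much of the enzyme machinery that degrades them. Branched-chain amino acids lose their amino group to a transaminase, are decarboxylated by the branched-chain keto acid dehydrogenase complex, and then pass through separate mitochondrial steps for leucine, isoleucine and valine that end in acetyl-CoA, propionyl-CoA or ketone precursors. Glycine is split by the mitochondrial glycine cleavage system into carbon dioxide, ammonia and a one-carbon unit carried by folate, while proline and ornithine share an intermediate on the way to glutamate. Aromatic amino acids are opened by dioxygenases and cut to fumarate and acetoacetate.

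Levels are given as CPM (counts per 1 M), that is, a gene's share of the library's counts after scaling by the trimmed mean of M values (TMM). Library totals were 60.2 to 62 M counts in the LPS+Tβ4 group, 53 to 58.1 M in the LPS group and 56.6 to 59.5 M in the saline group. Values per library are listed in the order of replicates 1, 2 and 3, each mean is given ± SD over 3 mice, and each log2 fold change is given ± its SE. Changes were called at a Benjamini-Hochberg adjusted p under 0.05 in edgeR's quasi-likelihood test, adjusted over all 15015 genes tested. Levels of different genes are compared only as FPKM, the authors' values per length of transcript.

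Promoters of 5 genes whose levels the results turn on are shown here, because their levels moved in different ways. The sequences are from RefSeq (GRCm38.p6), 250 bases immediately upstream of the transcription start, written 5′ to 3′ on the gene's strand. Capitals mark every match to 7 motifs searched on both strands. These were an HNF1 core (GTTAATNAT), an HNF4 core (CAAAGTCCA), the start of a nuclear receptor direct repeat (AGGTCANAG) and an NF-kB site (GGGACTTTC). The others were a CCAAT box spelled as its name, a GC box and a TATA box spelled TATAAA. Adjacent GC boxes can run into each other, and no overlap between different motifs was removed. Hao2 (chr3:98893231-98893480, minus strand) had the largest fall of the set, Prodh2 (chr7:30493408-30493657, plus strand) and Agxt2 (chr15:10358283-10358532, plus strand) hold the HNF matches, Hibch (chr1:52844788-52845037, plus strand) was higher in LPS+Tβ4 than in LPS kidneys, and Glud1 (chr14:34310477-34310726, plus strand) was not called lower in any comparison.
Hao2: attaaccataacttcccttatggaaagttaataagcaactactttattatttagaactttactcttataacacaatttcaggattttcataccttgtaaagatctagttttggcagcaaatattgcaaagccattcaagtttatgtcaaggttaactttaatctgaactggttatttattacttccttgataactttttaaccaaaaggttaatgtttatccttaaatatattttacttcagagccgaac
Prodh2: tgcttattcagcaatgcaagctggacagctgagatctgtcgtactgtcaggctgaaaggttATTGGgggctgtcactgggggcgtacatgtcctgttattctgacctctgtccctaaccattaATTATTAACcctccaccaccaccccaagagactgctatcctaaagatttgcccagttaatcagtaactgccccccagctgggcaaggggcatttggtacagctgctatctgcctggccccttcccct
Agxt2: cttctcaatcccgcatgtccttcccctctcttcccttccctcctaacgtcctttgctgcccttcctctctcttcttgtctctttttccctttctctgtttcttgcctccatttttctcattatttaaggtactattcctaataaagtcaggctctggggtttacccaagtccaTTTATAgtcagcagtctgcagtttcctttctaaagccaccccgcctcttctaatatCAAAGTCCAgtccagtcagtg
Hibch: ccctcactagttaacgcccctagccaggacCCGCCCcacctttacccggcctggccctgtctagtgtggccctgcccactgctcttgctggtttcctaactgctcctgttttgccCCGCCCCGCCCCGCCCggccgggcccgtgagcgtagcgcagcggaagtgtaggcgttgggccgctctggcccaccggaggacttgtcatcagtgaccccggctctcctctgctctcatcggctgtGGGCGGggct
Glud1: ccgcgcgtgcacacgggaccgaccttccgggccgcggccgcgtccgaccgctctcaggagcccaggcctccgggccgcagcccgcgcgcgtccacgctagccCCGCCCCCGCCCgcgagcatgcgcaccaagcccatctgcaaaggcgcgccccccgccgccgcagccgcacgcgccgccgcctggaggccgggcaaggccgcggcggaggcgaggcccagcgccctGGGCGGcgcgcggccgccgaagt

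The Hao2 window holds no match to any of the 7 motifs, whereas Hibch and Glud1 hold only GC boxes, searched as GGGCGG. Promoter windows were found for 36 of the 37 genes, all but Dbt, and some genes have more than 1, so that 44 windows were set against 32851 windows of all genes. CCAAT boxes were in 52.3% of the enzyme genes' windows and in 33.8% of all windows, and GC boxes were in 38.6% of the enzyme genes' windows and in 32.7% of all windows. TATA boxes were in 9.09% of the enzyme genes' windows and in 12.4% of all windows. HNF4 core matches were in 2 overlapping windows of 1 gene, Agxt2 (4.55%), and in 0.384% of all windows. The HNF1 core was in 1 of the 44 windows (2.27%), that of Prodh2, and in 0.737% of all windows. The start of the direct repeat was in 4 windows (9.09%), those of Amt, Bckdhb, Dao and Ddo, and in 1.75% of all windows. The NF-kB site was in none, against 0.289% of all windows. The HNF1 core, the start of the direct repeat and the NF-kB site were first searched with 1 more base at their 3′ end. The shorter spelling was taken up after that result was known. With the longer spelling the HNF1 core was still in the Prodh2 window alone (0.371% of all windows), and the NF-kB site was in none (0.14%). The start of the direct repeat, with a further G, was in none of the 44 windows against 0.56% of all windows. The 4 matches thus rest on the shorter spelling, and none of the 44 windows holds the whole repeat in these letters. These matches describe the letters of the windows, and binding was not measured.

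Several libraries differed in ways that their groups do not explain. The third LPS library had the highest level of the 3 LPS libraries for 26 of the 37 genes, and the third LPS+Tβ4 library had the lowest of its group for 29. For 22 genes the third LPS+Tβ4 library lay below the third LPS library, whereas the other LPS+Tβ4 libraries both lay above the other LPS libraries for 32 genes. Summed levels of 5 uroplakins, markers of the urothelium, were 1.03, 0.754 and 65.5 CPM in the LPS+Tβ4 libraries, 54.8, 45.9 and 0.924 CPM in the LPS libraries and 2.12, 86.5 and 74.1 CPM in the saline libraries. Upk2 and Upk3a were at 0 in the third LPS library and in the first and second LPS+Tβ4 libraries. Differences between LPS+Tβ4 and LPS are therefore also given below without the third libraries. These are the third LPS and the third LPS+Tβ4 library, left out together, a choice made after seeing the data. As they held the highest LPS and the lowest LPS+Tβ4 levels for most of the 37 genes, their removal raises the difference by construction. Values of that fit are thus not separate evidence of a difference. In that fit 36 of the 37 genes had a positive log2 fold change of LPS+Tβ4 over LPS, and 4 had turned direction (Bckdha, Ivd, Prodh2 and Got1), none of them called in either fit. A covariate for the summed uroplakin level was fitted as well.

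Markers of several other cell types differed between the groups too. Beside the counts below, 22.2% of all genes tested were called lower and 20.9% higher in LPS against saline, 2.33% lower and 4.5% higher in LPS+Tβ4 against LPS, and 11.8% lower and 12.3% higher in LPS+Tβ4 against saline kidneys. Of 22 proximal tubule markers, 15 fell with LPS and 13 were lower in LPS+Tβ4 than in saline kidneys. Between LPS+Tβ4 and LPS 0 were called, with 5 at an edgeR unadjusted p under 0.05, a count given without the share over all genes. There DESeq2 called 3 (beside 16.3% of all genes in either direction) and limma 1 (beside 6.73%). The summed level of these 22 markers was 8605 to 18165 CPM in LPS+Tβ4, 7502 to 26853 CPM in LPS and 37948 to 39236 CPM in saline kidneys. A large part of it was 1 gene, Kap, which was called in no comparison. Kap was at 3334 to 10645 CPM in LPS+Tβ4, 4276 to 14409 CPM in LPS and 14383 to 16513 CPM in saline kidneys. Kidneys with fewer tubule cells and kidneys with less RNA per tubule cell cannot be told apart in such bulk samples. Of 9 neural markers, 8 were higher in LPS+Tβ4 than in LPS kidneys and all 9 were higher than in saline kidneys, with sums of 516 to 622 CPM in LPS+Tβ4, 31.3 to 184 CPM in LPS and 62.3 to 69.6 CPM in saline kidneys, and no marker was at 0 in any library. The third LPS+Tβ4 library, at 618 CPM, and the third LPS library, at 31.3 CPM, lay far apart in this sum, the first near the rest of its labelled group and the second below every other library. Leukocyte markers, 10 in number and 6 of them tested, summed to 87.2 to 173 CPM in LPS+Tβ4, 74.2 to 95.6 CPM in LPS and 31.0 to 44.9 CPM in saline kidneys, with Ly6g at 0 in all saline libraries. Of the 6 tested, 4 were higher and 1 was lower with LPS, and 4 were higher in LPS+Tβ4 than in saline kidneys. Between LPS+Tβ4 and LPS edgeR called 0 of them and DESeq2 called 3 higher. Of 8 hepatocyte markers, 1 fell with LPS and 1 was lower in LPS+Tβ4 than in saline kidneys. Albumin (Alb) stood at 2.94, 36.3 and 5.21 CPM in LPS+Tβ4, 1.05, 4.85 and 3.33 CPM in LPS and 309, 5.51 and 8.11 CPM in saline kidneys, so the first saline library and the second LPS+Tβ4 library stood above the others of their groups. All 5 erythroid markers were lower in LPS+Tβ4 than in both other groups, with sums of 181 to 261 CPM in LPS+Tβ4, 533 to 703 CPM in LPS and 544 to 689 CPM in saline kidneys. Here too the third LPS+Tβ4 library (190 CPM) lay within the range of the other libraries labelled LPS+Tβ4, and the third LPS library (703 CPM) lay far above all of them, so both libraries stood with the opposite group by uroplakins and apart from it by neural and erythroid sums. Whether samples were exchanged was not tested further, and the labels were kept. Of 14 markers of the loop, distal tubule and collecting duct, 11 fell with LPS, 1 was higher in LPS+Tβ4 than in LPS and 4 were lower in LPS+Tβ4 than in saline kidneys. Of 6 podocyte markers, 4 fell with LPS, 1 was higher in LPS+Tβ4 than in LPS and 1 was lower in LPS+Tβ4 than in saline kidneys. Of 5 endothelial markers, 1 was lower in LPS+Tβ4 than in saline kidneys, and 0 were called in the other comparisons. The part of these cell types in the results below was not tested.

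Most genes of the set were lower with LPS. Of the 37 genes, 32 were lower in LPS than in saline kidneys, none was higher, and 5 (Bckdha, Hpd, Fah, Glud1 and Got1) did not pass the test. Among all genes tested, 43.1% were called, 22.2% lower and 20.9% higher. The median log2 fold change of LPS over saline was -1.64 for the set and 0.02 for all genes tested, with a range in the set of -4.87 to 0.46. Marker medians were -1.97 for proximal tubule, -2.83 for loop, distal and collecting duct, -1.16 for podocyte and -1.57 for hepatocyte markers. They were -0.37 for endothelial, -0.05 for erythroid, 0.05 for neural and 3.41 for leukocyte markers. For 35 of the 37 genes the highest LPS library lay below the lowest saline library, as it did for 28.5% of all genes tested. No member passed upward by an unadjusted p under 0.05, by DESeq2 or by limma. Calls of 24 genes stood in all 21 alternatives, and those of Auh and Ddo in the 20 in which they were tested, since both fell under the stricter filter on low values. Of the 21 alternatives, the call of Oat was lost in 14, Hibadh in 11, Dld in 10, Dmgdh in 7, and Ivd and Gldc in 5 each.

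In LPS+Tβ4 against LPS kidneys, the log2 fold change was positive for 32 of the 37 genes, and few passed the test. Of the set, 5 genes were higher (Hibch, Amt, Gcsh, Aldh4a1 and Ddo), none was lower, and the median log2 fold change was 0.34, against -0.01 for all genes tested. Among all genes tested, 6.83% were called, 4.5% higher and 2.33% lower, and 13.5% of the set was higher. An edgeR unadjusted p under 0.05 was reached by 11 members upward and none downward. The share over all genes is not given for that threshold, so this count is not read as a result about the set. DESeq2 called 8 members upward, beside 16.3% of all genes called in either direction. Limma on log2(FPKM + 1) called 7 upward, beside 6.73% of all genes, and neither called a member downward. The LPS+Tβ4 libraries all lay above the LPS libraries for 10 of the 37 genes, as they did for 14.4% of all genes tested. In LPS+Tβ4 against saline kidneys, 24 genes were lower and none was higher, with a median log2 fold change of -1.01. No member was higher at an unadjusted p under 0.05 or by DESeq2, and limma called 1 higher, Glud1. Of all genes tested, 24.1% were called in that comparison, 11.8% lower and 12.3% higher, and ranges of 32 members lay wholly below saline, as for 26.2% of all genes tested. The LPS+Tβ4 against LPS and LPS against saline comparisons share the LPS libraries, so their opposite signs are not separate evidence.

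The number of genes called between LPS+Tβ4 and LPS depended on the libraries in the fit. Without the third libraries, whose removal raises the difference by construction, 15 of the 37 genes were higher, among them the 5 above. The median log2 fold change was then 0.75, while 12.7% of all genes were called in either direction. The 10 added genes were Mccc1, Mccc2, Pcca, Pccb, Hgd, Ddc, Sardh, Dmgdh, Pipox and Dao. With the uroplakin covariate 6 genes were higher, while 7.45% of all genes were called in either direction. With only the 6 libraries compared, or with the replicate number as a block, none was called. In those last fits 3 and 5 of all genes were called. Leaving out 1 library at a time gave 0 to 8 calls, with the fewest when the second LPS+Tβ4 library was left out (0.453% of all genes called in either direction) and the most when the first LPS library was (17.8% of all genes). None of the 5 calls stood in every alternative. Hibch was called in 18 of 21 and its log2 fold change ranged from 0.77 to 0.96.

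**Figure D1:**
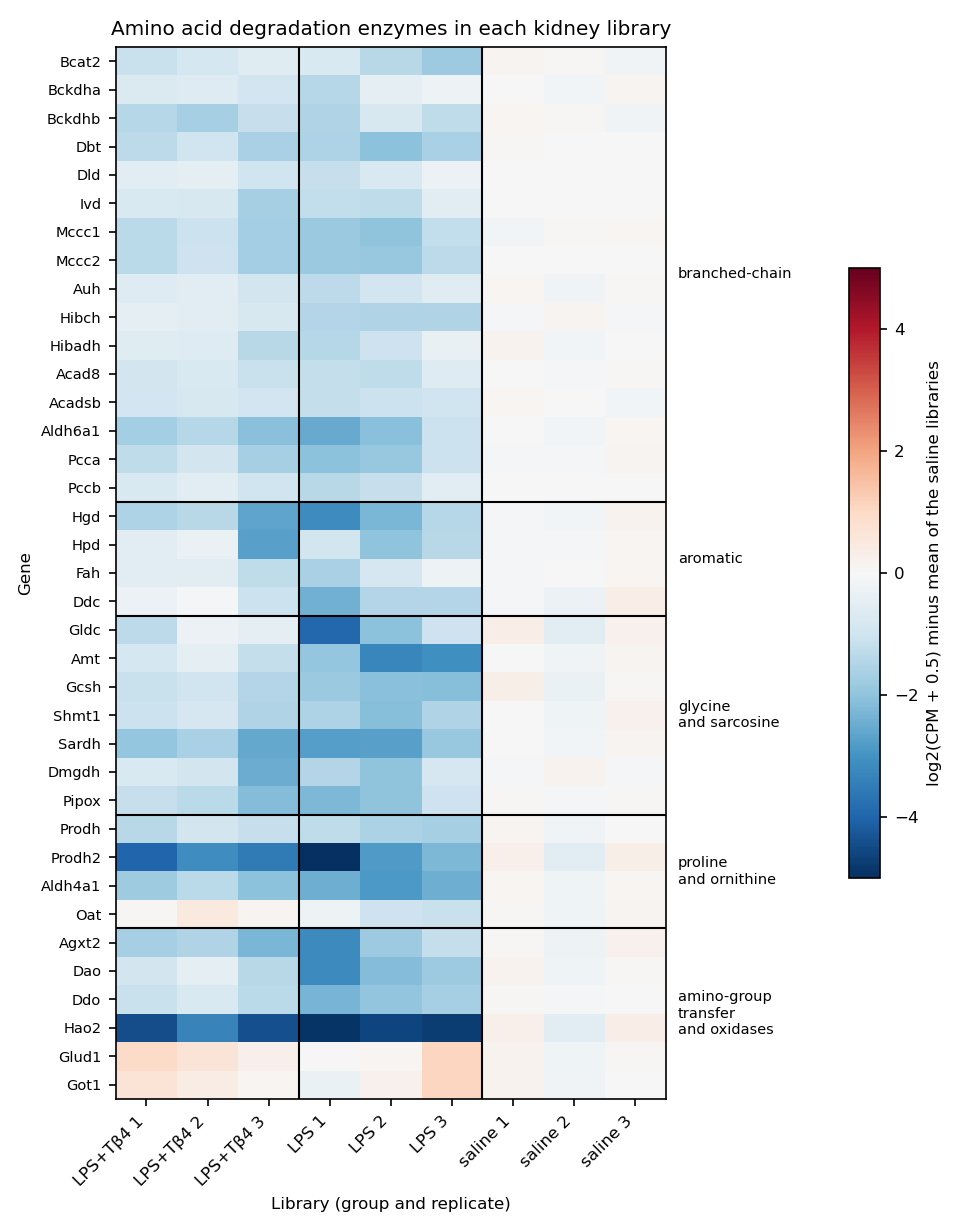
Level of each of the 37 genes (rows, by pathway) in each of the 9 libraries (columns), as log2(CPM + 0.5) minus the mean of the 3 saline libraries; blue is lower and red is higher than saline. Most rows are blue in all LPS and LPS+Tβ4 libraries, Hao2 and Prodh2 are the darkest, and Glud1, Got1 and Oat are the rows with red outside the saline columns.

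Degradation of branched-chain amino acids begins with Bcat2, the mitochondrial branched-chain aminotransferase. Bcat2 was at 31.9, 37.7 and 45.7 CPM in LPS+Tβ4, 41, 26.1 and 19.4 CPM in LPS and 76, 72.1 and 61 CPM in saline kidneys. It fell with LPS (log2 fold change -1.27 ± 0.27, adjusted p 0.0057) and was also lower in LPS+Tβ4 than in saline kidneys (-0.86 ± 0.27, adjusted p 0.047), a call that ended in several alternatives. LPS+Tβ4 and LPS libraries overlapped (0.41 ± 0.26, adjusted p 0.37; 0.02 ± 0.24 and adjusted p 0.96 without the third libraries). Bcat2 lies across a RIKEN gene on the opposite strand with a similar count, and the labels do not state whether the authors' counting used strand.

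The committed step is run by the branched-chain keto acid dehydrogenase complex, of which the genes differed in how far they fell. Dbt, the core acyltransferase subunit, was at 49.6, 60.7 and 40.0 CPM in LPS+Tβ4, 41.3, 29.6 and 39.3 CPM in LPS and 128, 119.7 and 121 CPM in saline kidneys. All 6 treated libraries lay far below saline, and the fall with LPS was -1.74 ± 0.19 on the log2 scale (adjusted p 0.00027). Bckdhb, the β subunit of the decarboxylase, averaged 13.1 ± 2.33 CPM in LPS+Tβ4, 15.5 ± 4.02 CPM in LPS and 35.2 ± 3.60 CPM in saline kidneys and fell by 1.19 ± 0.22 on the log2 scale with LPS (adjusted p 0.003). Its partner Bckdha, the α subunit, had 129, 136 and 111 CPM in LPS+Tβ4, 80, 157 and 179 CPM in LPS and 215, 196 and 232 CPM in saline kidneys. The LPS libraries of Bckdha were spread widely and none reached the saline range, and its log2 fold change of -0.63 ± 0.27 did not pass (adjusted p 0.088). Bckdha overlaps B3gnt8 on the opposite strand. Dld, the dihydrolipoamide dehydrogenase that this complex shares with the pyruvate, 2-oxoglutarate and glycine systems, averaged 244 ± 44.8 CPM in LPS+Tβ4, 237 ± 72.0 CPM in LPS and 384 ± 1.35 CPM in saline kidneys (LPS over saline -0.70 ± 0.23, adjusted p 0.038). Between LPS+Tβ4 and LPS none of the 4 passed, with log2 fold changes from -0.24 (Bckdhb) to 0.45 (Dbt). With the third libraries left out these were -0.45 ± 0.25 (Bckdhb), 0.14 ± 0.29 (Bckdha, against -0.15 with all libraries), 0.42 ± 0.16 (Dld) and 0.61 ± 0.19 (Dbt), and again none passed.

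In the leucine branch, Ivd (isovaleryl-CoA dehydrogenase), both subunits of methylcrotonyl-CoA carboxylase (Mccc1 and Mccc2) and Auh (methylglutaconyl-CoA hydratase) all fell with LPS. Mccc1 was at 67.4, 80.5 and 53.1 CPM in LPS+Tβ4, 47.3, 41.7 and 73.2 CPM in LPS and 155, 177 and 185 CPM in saline kidneys. Mccc2 was at 34.5, 42.1 and 26.7 CPM in LPS+Tβ4, 23.8, 23.2 and 34.8 CPM in LPS and 89.7, 86.3 and 87.0 CPM in saline kidneys. These subunits, which form a single enzyme, kept nearly the same proportions of saline, 38.9% and 39.3% in LPS+Tβ4 and 31.4% and 31.1% in LPS kidneys. Their falls with LPS were -1.67 ± 0.24 (Mccc1, adjusted p 0.00097) and -1.69 ± 0.21 (Mccc2, adjusted p 0.00053). Ivd averaged 254 ± 78.5 CPM in LPS+Tβ4, 257 ± 73.8 CPM in LPS and 512 ± 8.90 CPM in saline kidneys, and Auh 45.1 ± 5.52, 38.5 ± 9.60 and 74.5 ± 7.42 CPM in the same groups. For LPS+Tβ4 over LPS these 4 genes had log2 fold changes of -0.01 to 0.34 and none passed. Without the third libraries, Mccc1 (0.71 ± 0.16, adjusted p 0.035) and Mccc2 (0.68 ± 0.14, adjusted p 0.027) were called higher, while Ivd (0.46 ± 0.13, adjusted p 0.068) and Auh (0.50 ± 0.17, adjusted p 0.093) did not pass.

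The valine and isoleucine branches hold the gene with the highest level per length of the set in saline kidneys (Aldh6a1) and the gene with the smallest adjusted p between LPS+Tβ4 and LPS (Hibch). Hibch encodes 3-hydroxyisobutyryl-CoA hydrolase of valine degradation and lies on chromosome 1 (52844929 to 52920986, plus strand, GRCm38). Hibch was at 50.3, 48.4 and 40.7 CPM in LPS+Tβ4, 25.8, 24.9 and 25.0 CPM in LPS and 67.9, 77.9 and 69.5 CPM in saline kidneys. The 3 groups did not overlap, and the 3 LPS libraries lay within 1 CPM of each other. Hibch fell with LPS (-1.51 ± 0.12, adjusted p 8.9e-05), was higher in LPS+Tβ4 than in LPS kidneys (0.88 ± 0.12, adjusted p 0.013; 0.93 ± 0.13 without the third libraries) and stayed lower in LPS+Tβ4 than in saline kidneys (-0.63 ± 0.12, adjusted p 0.0068).

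Aldh6a1, the methylmalonate semialdehyde dehydrogenase that ends the valine branch, had the highest level per length of the 37 genes in saline kidneys (56.8 FPKM in LPS+Tβ4, 52.2 FPKM in LPS and 163 ± 7.69 FPKM in saline kidneys), whereas Glud1 was above it in both treated groups (162 FPKM in LPS+Tβ4 and 137 FPKM in LPS kidneys). In CPM it was at 352, 429.6 and 266 in LPS+Tβ4, 198, 271 and 549.8 in LPS and 1177, 1058 and 1221 in saline kidneys. The third LPS library was more than double the other LPS libraries and above every LPS+Tβ4 library. Aldh6a1 fell with LPS (-1.76 ± 0.37, adjusted p 0.0055) and did not differ between LPS+Tβ4 and LPS beyond the spread (0.04 ± 0.36, adjusted p 0.96; 0.71 ± 0.21 and adjusted p 0.068 without the third libraries). Of the other enzymes here, Acad8 (isobutyryl-CoA dehydrogenase), Acadsb (the short/branched-chain acyl-CoA dehydrogenase of isoleucine) and Hibadh (3-hydroxyisobutyrate dehydrogenase) fell with LPS by 1.01 ± 0.18, 1.10 ± 0.12 and 0.89 ± 0.31 on the log2 scale. Acadsb libraries did not overlap between LPS+Tβ4 (81.9 to 92.6 CPM) and LPS (69.2 to 80.5 CPM), against 147 to 172 CPM in saline, but the difference of 0.19 ± 0.12 did not pass (adjusted p 0.34). Without the third libraries LPS+Tβ4 over LPS was 0.24 ± 0.14 for Acadsb, 0.37 ± 0.13 for Acad8 and 0.59 ± 0.19 for Hibadh, with no call. Acadsb overlaps Fgfr2 on the opposite strand.

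Propionyl-CoA from isoleucine and valine is carboxylated by an enzyme whose subunits are Pcca and Pccb. Pcca was at 57.5, 72.5 and 43.8 CPM in LPS+Tβ4, 32.5, 36.4 and 64.7 CPM in LPS and 132, 130.3 and 152 CPM in saline kidneys. Pccb was at 188, 222 and 158 CPM in LPS+Tβ4, 120.2, 141 and 215 CPM in LPS and 317, 313 and 324 CPM in saline kidneys. Both showed the same order of libraries, with the second LPS+Tβ4 library highest of its group and the third LPS library highest of its own. Falls with LPS were -1.64 ± 0.28 (Pcca, adjusted p 0.0024) and -1.0 ± 0.23 (Pccb, adjusted p 0.0077). Differences between LPS+Tβ4 and LPS were 0.38 ± 0.28 and 0.25 ± 0.22 with all libraries, neither called, and 0.89 ± 0.16 (adjusted p 0.020) and 0.63 ± 0.15 (adjusted p 0.040) without the third libraries. Pcca overlaps Ggact on the opposite strand.

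For the branched-chain group as a whole, 15 of 16 genes were lower in LPS than in saline kidneys (median -1.14), beside 22.2% of all genes tested. In LPS+Tβ4 against LPS 1 was higher (6.25%, near the 4.5% of all genes; median 0.21), and 13 were lower in LPS+Tβ4 than in saline kidneys (median -0.92), beside 11.8% of all genes. Falls with LPS ran from -1.76 (Aldh6a1) to -0.63 (Bckdha). Their summed level was 1540 to 2276 CPM in LPS+Tβ4, 1360 to 2506 CPM in LPS and 3996 to 4281 CPM in saline kidneys.

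**Figure D2:**
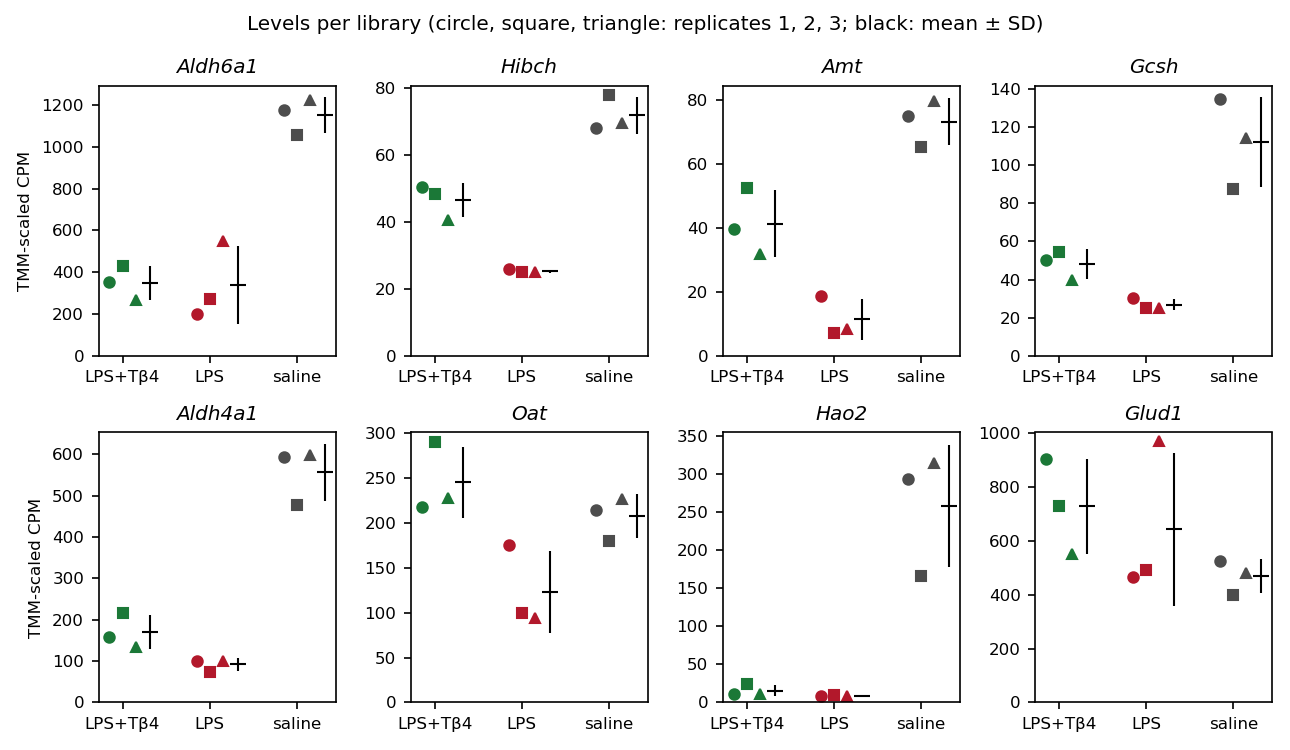
Level in TMM-scaled CPM of 8 genes in each library, with symbols for replicates 1 to 3 and the mean ± SD in black, for LPS+Tβ4, LPS and saline from left to right. Hibch, Amt, Gcsh and Aldh4a1 lie higher in all LPS+Tβ4 than in all LPS libraries. Aldh6a1 and Glud1 show the third LPS library well above the other LPS libraries, and Hao2 stays near 0 in both treated groups.

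All 3 genes specific to the glycine cleavage system fell with LPS, and 2 of them, Amt and Gcsh, were higher in LPS+Tβ4 than in LPS kidneys. Amt, its aminomethyltransferase (chromosome 9, 108296853 to 108302302, plus strand), was at 39.6, 52.5 and 31.8 CPM in LPS+Tβ4, 18.8, 7.21 and 8.28 CPM in LPS and 75.1, 65.3 and 79.6 CPM in saline kidneys. These ranges did not overlap, and LPS kidneys had 15.6% of the saline mean against 56.3% in LPS+Tβ4 kidneys. Amt fell with LPS (-2.68 ± 0.37, adjusted p 0.00086) and was higher in LPS+Tβ4 than in LPS kidneys (1.85 ± 0.36, adjusted p 0.028). Without the third libraries the difference was 1.79 ± 0.42 (adjusted p 0.039), and the call ended in 10 of 21 alternatives. Amt in LPS+Tβ4 against saline kidneys gave -0.83 ± 0.35, which did not pass (adjusted p 0.13).

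Gcsh, the lipoyl-carrying H protein of the same system, was at 50.1, 54.6 and 39.7 CPM in LPS+Tβ4, 30.3, 25.3 and 24.9 CPM in LPS and 135, 87.4 and 114 CPM in saline kidneys. It fell with LPS (-2.06 ± 0.20, adjusted p 0.00017), was higher in LPS+Tβ4 than in LPS kidneys (0.84 ± 0.19, adjusted p 0.039; 0.89 ± 0.22 without the third libraries, with the call ended in 9 of 21 alternatives) and stayed lower in LPS+Tβ4 than in saline kidneys (-1.22 ± 0.19, adjusted p 0.0032). Gldc, the glycine decarboxylase, was the most variable of the system. Its libraries were at 51.4, 104 and 92.7 CPM in LPS+Tβ4, 8.05, 30.2 and 61.8 CPM in LPS and 162, 87.2 and 149 CPM in saline kidneys. The first LPS library was lowest and the LPS+Tβ4 and saline ranges overlapped. Gldc fell with LPS (-1.99 ± 0.64, adjusted p 0.033), a call lost in 5 alternatives, and its difference of 1.31 ± 0.62 between LPS+Tβ4 and LPS did not pass (adjusted p 0.23; 2.00 ± 0.64 and adjusted p 0.087 without the third libraries).

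Enzymes that feed or use glycine and sarcosine also fell with LPS. Sardh and Dmgdh, the mitochondrial sarcosine and dimethylglycine dehydrogenases of choline breakdown, averaged 101 ± 31.5 and 54.8 ± 28.3 CPM in LPS+Tβ4, 75.5 ± 26.5 and 49.1 ± 20.0 CPM in LPS and 402 ± 38.6 and 127 ± 13.8 CPM in saline kidneys. Sardh fell by 2.41 ± 0.31 on the log2 scale (adjusted p 0.00057) and Dmgdh by 1.37 ± 0.44 (adjusted p 0.035). Pipox, the peroxisomal sarcosine and pipecolate oxidase at 119 ± 4.60 FPKM in saline kidneys, averaged 127 ± 42.4 CPM in LPS+Tβ4, 113 ± 52.9 CPM in LPS and 358 ± 24.1 CPM in saline kidneys (LPS over saline -1.67 ± 0.35, adjusted p 0.006). Shmt1, the cytosolic serine hydroxymethyltransferase, averaged 23.7 ± 5.5 CPM in LPS+Tβ4, 15.7 ± 3.67 CPM in LPS and 52.3 ± 7.54 CPM in saline kidneys (LPS over saline -1.74 ± 0.24, adjusted p 0.00084). None of these 4 was called between LPS+Tβ4 and LPS, where Shmt1 had the largest difference (0.59 ± 0.24, adjusted p 0.16). Shmt1 overlaps Smcr8, which has more counts, by 184 bases on the opposite strand. Leaving out the third libraries, Sardh (0.94 ± 0.16), Dmgdh (0.86 ± 0.22) and Pipox (0.85 ± 0.16) were called higher, and Shmt1 did not pass (0.85 ± 0.25, adjusted p 0.069).

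Proline and ornithine meet at pyrroline-5-carboxylate, which Aldh4a1 oxidises to glutamate. Aldh4a1 (chromosome 4, 139622866 to 139649690, plus strand) was at 159, 216 and 135 CPM in LPS+Tβ4, 101, 74.5 and 101 CPM in LPS and 594, 477 and 598 CPM in saline kidneys. It fell with LPS (-2.60 ± 0.22, adjusted p 0.00012), was higher in LPS+Tβ4 than in LPS kidneys (0.89 ± 0.21, adjusted p 0.046; 1.07 ± 0.24 without the third libraries) and remained well under saline (-1.71 ± 0.22, adjusted p 0.0013). The LPS+Tβ4 against LPS call ended in 11 of 21 alternatives. Oat, ornithine aminotransferase, was at 218, 290.5 and 228 CPM in LPS+Tβ4, 175, 99.5 and 94.3 CPM in LPS and 215, 180.2 and 227 CPM in saline kidneys. The LPS libraries lay below all others, while LPS+Tβ4 overlapped saline (0.24 ± 0.25, adjusted p 0.53). The fall with LPS was -0.75 ± 0.25 (adjusted p 0.040), a call that many alternatives ended, and the difference between LPS+Tβ4 and LPS, 0.99 ± 0.25, missed the threshold (adjusted p 0.052; 0.86 ± 0.30 and adjusted p 0.10 without the third libraries). Oat overlaps Fgfr2 on the same strand.

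Both proline oxidases of this group were lower in the treated groups than in saline kidneys. Prodh, the mitochondrial proline dehydrogenase, averaged 87.0 ± 14.9 CPM in LPS+Tβ4, 67.8 ± 9.74 CPM in LPS and 193 ± 21.0 CPM in saline kidneys (LPS over saline -1.51 ± 0.17, adjusted p 0.00035; LPS+Tβ4 over LPS 0.36 ± 0.17, adjusted p 0.22, and 0.26 ± 0.21 without the third libraries). Prodh overlaps Dgcr6 on the opposite strand. Prodh2, the hydroxyproline dehydrogenase, was at 4.13, 7.89 and 5.74 CPM in LPS+Tβ4, 1.04, 9.77 and 14.9 CPM in LPS and 85.5, 50.1 and 88.3 CPM in saline kidneys. All treated libraries lay far under saline, and the second and the third LPS library lay above all LPS+Tβ4 libraries. Prodh2 fell with LPS (-3.13 ± 0.78, adjusted p 0.012) and was low with the peptide as well (LPS+Tβ4 over saline -3.66 ± 0.80, adjusted p 0.012; LPS+Tβ4 over LPS -0.53 ± 0.73, adjusted p 0.70). The last value turned direction without the third libraries, to 0.15 ± 0.86 (adjusted p 0.93).

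Tyrosine is degraded through Hpd, Hgd and Fah, and Ddc decarboxylates aromatic amino acids such as DOPA. Hgd, homogentisate dioxygenase, was at 105, 116 and 49.1 CPM in LPS+Tβ4, 34.8, 61.9 and 113 CPM in LPS and 299, 280.0 and 347 CPM in saline kidneys, and fell with LPS (-2.14 ± 0.45, adjusted p 0.0058). The third libraries crossed over, with the third LPS library near the first and second LPS+Tβ4 libraries and the third LPS+Tβ4 library between the first and second LPS libraries. Hgd gave 0.36 ± 0.43 for LPS+Tβ4 over LPS with all libraries (adjusted p 0.65) and 1.17 ± 0.27 without the third libraries (adjusted p 0.036). Fah, fumarylacetoacetase, at 108 FPKM in saline kidneys, averaged 174 ± 46.9 CPM in LPS+Tβ4, 167 ± 74.7 CPM in LPS and 292 ± 17.8 CPM in saline kidneys, and did not pass (LPS over saline -0.81 ± 0.33, adjusted p 0.079; LPS+Tβ4 over LPS 0.06 ± 0.33, and 0.63 ± 0.24 without the third libraries). Hpd, 4-hydroxyphenylpyruvate dioxygenase, averaged 15.5 ± 10.1 CPM in LPS+Tβ4, 11 ± 4.21 CPM in LPS and 29.3 ± 1.9 CPM in saline kidneys and did not pass (LPS over saline -1.42 ± 0.56, adjusted p 0.069; LPS+Tβ4 over LPS 0.50 ± 0.55, and 0.92 ± 0.35 without the third libraries). Neither gene passed between LPS+Tβ4 and LPS in either fit. Hpd overlaps Psmd9, on the opposite strand and with more counts.

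Ddc was at 71.8, 84.1 and 41.7 CPM in LPS+Tβ4, 16.4, 31.9 and 32.0 CPM in LPS and 85.7, 71.8 and 112 CPM in saline kidneys. The LPS libraries stood apart below the others, and LPS+Tβ4 overlapped saline. Ddc fell with LPS (-1.74 ± 0.34, adjusted p 0.0041), and its difference between LPS+Tβ4 and LPS, 1.30 ± 0.34, missed the threshold (adjusted p 0.056; 1.67 ± 0.34 and adjusted p 0.027 without the third libraries).

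Among the oxidases, Hao2 had the largest fall of the set. This peroxisomal hydroxy acid oxidase (chromosome 3, 98874521 to 98893239, minus strand) was at 11, 24.4 and 11.3 CPM in LPS+Tβ4, 7.86, 9.73 and 8.83 CPM in LPS and 293, 166 and 314 CPM in saline kidneys. LPS kidneys kept 3.42% of the saline mean and LPS+Tβ4 kidneys 6.03%. Hao2 fell by 4.87 ± 0.41 on the log2 scale with LPS (adjusted p 0.0001) and remained low in LPS+Tβ4 (-4.05 ± 0.39 against saline, adjusted p 0.00048). All LPS+Tβ4 libraries lay above all LPS libraries, but the difference of 0.82 ± 0.35 did not pass (adjusted p 0.19; 0.98 ± 0.43 and adjusted p 0.18 without the third libraries).

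Dao and Ddo are the peroxisomal oxidases of neutral and acidic D-amino acids. Dao was at 161, 216 and 117 CPM in LPS+Tβ4, 32.7, 66.5 and 86.8 CPM in LPS and 338, 261 and 316 CPM in saline kidneys. Ddo was at 26.4, 33.1 and 22.1 CPM in LPS+Tβ4, 11, 14.2 and 17.5 CPM in LPS and 59.6, 54.7 and 57.0 CPM in saline kidneys. In both, the 3 groups did not overlap and LPS+Tβ4 lay in the middle. Dao fell with LPS (-2.30 ± 0.36, adjusted p 0.0016), and its difference of 1.41 ± 0.35 between LPS+Tβ4 and LPS just missed the threshold (adjusted p 0.051; 1.91 ± 0.34 and adjusted p 0.020 without the third libraries). Ddo fell with LPS (-2.00 ± 0.21, adjusted p 0.00024) and was higher in LPS+Tβ4 than in LPS kidneys (0.93 ± 0.20, adjusted p 0.036; 1.21 ± 0.18 without the third libraries, with the call ended in 9 of 20 alternatives). Ddo had the lowest level per length of the 37 in saline, at 5.24 FPKM.

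Of the transaminases and glutamate dehydrogenase, Agxt2 fell with LPS, while Glud1 and Got1 did not pass. Agxt2, a mitochondrial aminotransferase of glyoxylate and of dimethylarginine, averaged 44.9 ± 12.3 CPM in LPS+Tβ4, 42.1 ± 25.4 CPM in LPS and 156 ± 23.5 CPM in saline kidneys and fell with LPS (-1.89 ± 0.45, adjusted p 0.010). Its LPS+Tβ4 over LPS value was 0.09 ± 0.44 with all libraries and 0.79 ± 0.40 without the third libraries, with no call. Glud1, the mitochondrial glutamate dehydrogenase, was at 902, 731 and 549.9 CPM in LPS+Tβ4, 464, 493 and 971 CPM in LPS and 524, 399.6 and 482 CPM in saline kidneys. All LPS+Tβ4 libraries lay above all saline libraries, as they did for 24.7% of all genes tested, and only the third LPS library did so in its group. Glud1 passed in no comparison (LPS over saline 0.46 ± 0.32, adjusted p 0.27; LPS+Tβ4 over LPS 0.18 ± 0.31, adjusted p 0.77; LPS+Tβ4 over saline 0.63 ± 0.32, adjusted p 0.18). Without the third libraries it was higher in LPS+Tβ4 than in saline kidneys (0.83 ± 0.18, adjusted p 0.019), and LPS+Tβ4 over LPS was 0.75 ± 0.20 (adjusted p 0.055). The third LPS+Tβ4 library was the lowest of its group for Glud1, so leaving it out raises both values by construction. Got1, the cytosolic aspartate aminotransferase, was at 175, 142 and 118 CPM in LPS+Tβ4, 88.3, 128 and 231 CPM in LPS and 123, 97.2 and 111 CPM in saline kidneys. Its groups overlapped in every comparison and its log2 fold changes lay between -0.04 and 0.43. The lowest of these, for LPS+Tβ4 over LPS, was 0.53 ± 0.22 (adjusted p 0.16) without the third libraries.

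**Figure D3:**
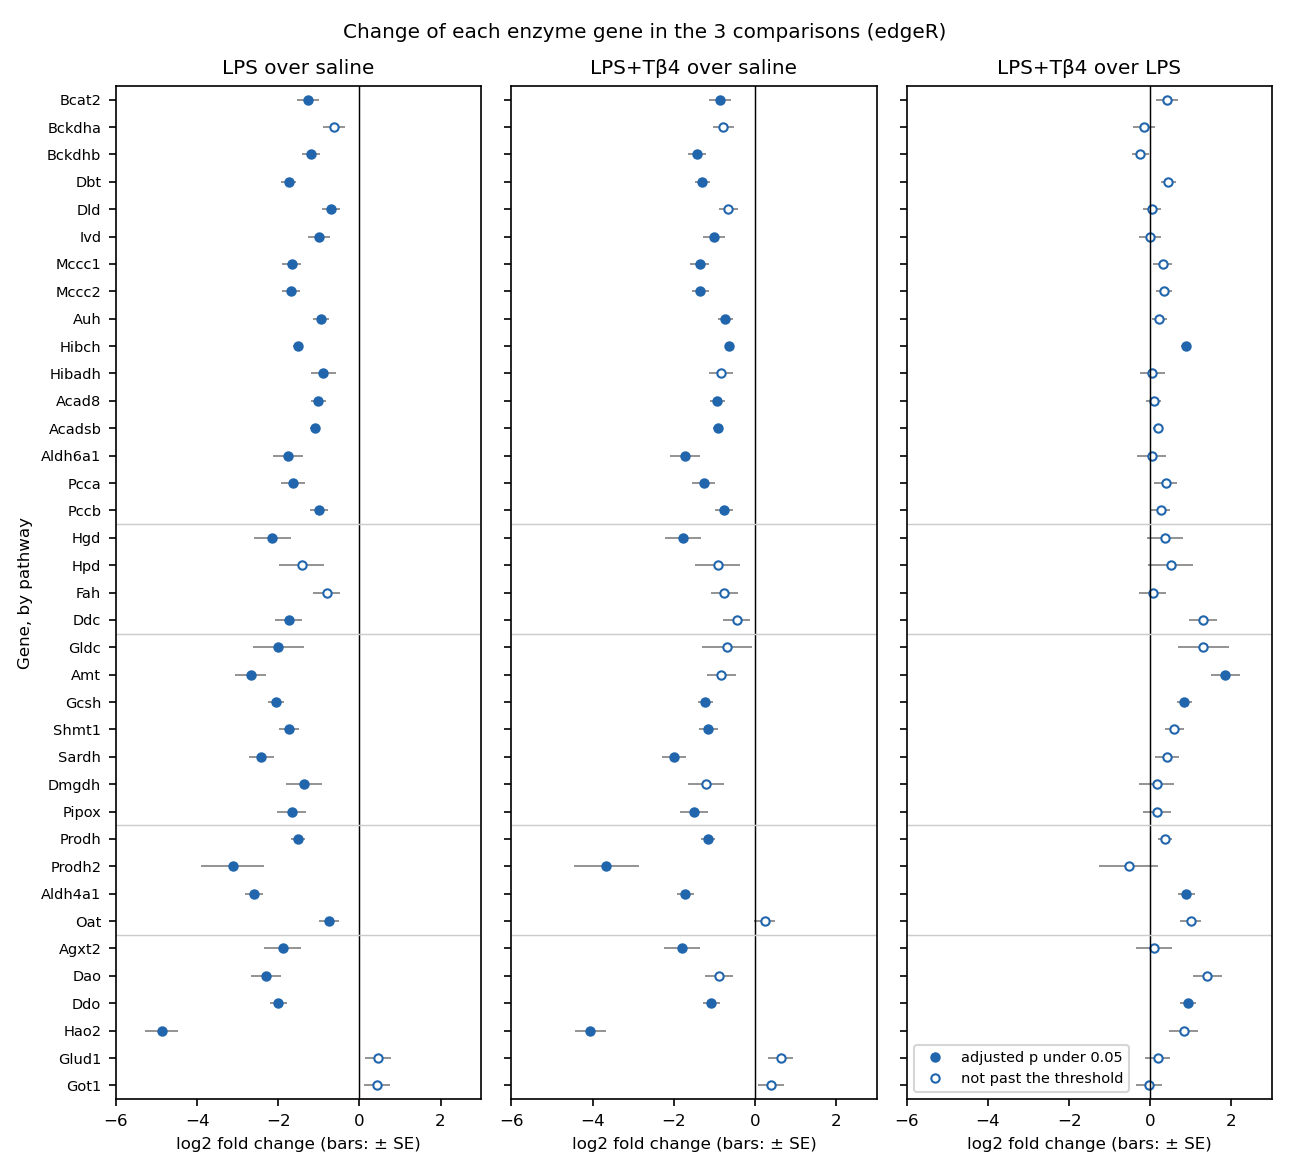
Log2 fold change ± SE of each of the 37 genes (rows, by pathway) in 3 comparisons, with filled points past the adjusted p threshold of 0.05. Filled points number 32, all left of 0, for LPS over saline; 24, all left of 0, for LPS+Tβ4 over saline; and 5, all right of 0, for LPS+Tβ4 over LPS.

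Set side by side, the branched-chain genes had the smallest median fall with LPS. Median log2 fold changes of LPS over saline were -1.14 for the 16 branched-chain genes, -1.58 for the 4 aromatic, -1.94 for the 6 amino-group transfer and oxidase, -1.99 for the 7 glycine and sarcosine and -2.05 for the 4 proline and ornithine genes, and -1.89 for the 21 genes outside the branched-chain group. In each of the 3 LPS libraries the branched-chain median was the nearest to saline of the 5. It was nearer to 0 than each other group's median in all 21 alternatives, where it ranged from -1.25 to -0.92 and the median of the genes outside the group from -2.12 to -1.58. The groups overlap gene by gene, since outside the branched-chain group Oat (-0.75), Fah (-0.81, not called), Glud1 (0.46, not called) and Got1 (0.43, not called) lay above its median. Genes called lower were 15 of 16 inside the group (93.8%) and 17 of 21 outside it (81.0%), beside 22.2% of all genes tested. Calls of Dld, Ivd and Hibadh inside the group, and of Gldc, Dmgdh and Oat outside it, were lost in some alternatives. The difference between the groups was not tested, because the genes of a group are not replicates.

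For LPS+Tβ4 over LPS the medians were 0.21 for branched-chain, 0.43 for aromatic, 0.50 for amino-group transfer and oxidase, 0.59 for glycine and sarcosine and 0.62 for proline and ornithine genes. Called genes were 1 of 16 branched-chain genes (6.25%) and 4 of 21 others (19.0%), beside 4.5% of all genes tested. The order of the groups changed without the third libraries. The medians were then 0.55 for branched-chain, 0.56 for proline and ornithine, 0.88 for amino-group transfer and oxidase, 0.89 for glycine and sarcosine and 1.05 for aromatic genes, and 0.89 for all 21 genes outside the branched-chain group. This comparison shares the LPS libraries with LPS over saline. In LPS+Tβ4 over saline the medians were closer, at -0.92 for branched-chain and -1.14 for the other genes. The aromatic median, -0.83, was then nearer to 0, and the branched-chain median was nearest to saline in 1 of the 3 LPS+Tβ4 libraries. The 4 proline and ornithine genes stayed lowest, at -1.43, followed by glycine and sarcosine genes at -1.21. This ranking covers the 37 genes only. The 5 other proline and hydroxyproline genes tested had a median of 0.59 for LPS over saline and 0.15 for LPS+Tβ4 over saline.

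**Figure D4:**
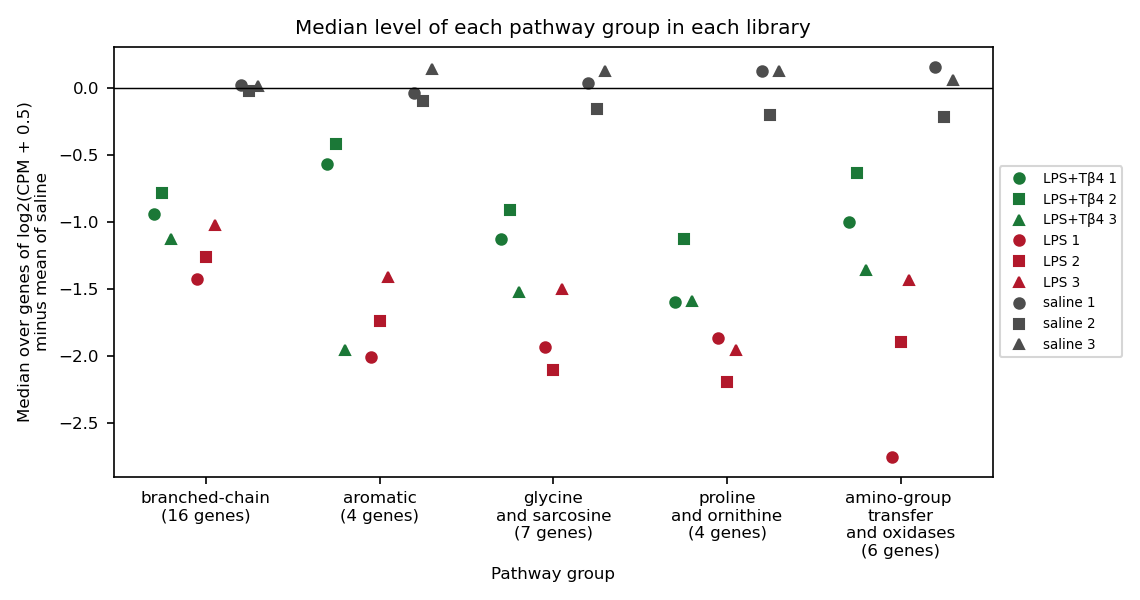
Median over genes of log2(CPM + 0.5) minus the saline mean, for each pathway group (x axis) in each library, with LPS+Tβ4 in green, LPS in red and saline in grey. In the 3 LPS libraries the branched-chain group lies between -1.43 and -1.03, nearer to 0 than the other groups, and the aromatic group has the third LPS+Tβ4 library at -1.96, far below the other libraries of that treatment.

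Most other genes of amino acid breakdown were also lower with LPS. Of 77 such genes measured, 66 were tested. In LPS against saline kidneys 49 were lower (74.2%, beside 22.2% of all genes tested) and 1 higher, with a median of -1.41. The smallest shares lower were 2 of 5 proline and hydroxyproline genes (40.0%, median 0.59) and 5 of 9 glutamine, aspartate, alanine and asparagine genes (55.6%, median -0.69). In LPS+Tβ4 against LPS kidneys 10 were higher (15.2%, beside 4.5% of all genes) and none lower (median 0.39). In LPS+Tβ4 against saline kidneys 37 were lower (56.1%, beside 11.8% of all genes) and 2 higher (median -0.96). Hykk, the hydroxylysine kinase, was at 53.8, 78.5 and 35.4 CPM in LPS+Tβ4, 20.4, 12.4 and 11.5 CPM in LPS and 412, 368 and 371 CPM in saline kidneys. It fell with LPS (-4.70 ± 0.36, adjusted p 8.3e-05) and was higher in LPS+Tβ4 than in LPS kidneys (1.92 ± 0.32, adjusted p 0.018; 1.98 ± 0.29 without the third libraries), a call that ended in 5 of 21 alternatives.

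The 10 wider-list genes that were higher in LPS+Tβ4 than in LPS kidneys were spread over several groups, with 3 of 11 among glycine, serine, threonine and choline genes (27.3%), 2 of 7 among lysine genes (28.6%) and 1 of 2 among histidine genes, beside 4.5% of all genes tested. Chdh, the choline dehydrogenase that leads to dimethylglycine and sarcosine, was at 338, 527 and 287 CPM in LPS+Tβ4, 136, 47.5 and 51.4 CPM in LPS and 393, 405 and 413 CPM in saline kidneys. LPS+Tβ4 overlapped saline and all LPS libraries lay below both (LPS over saline -2.36 ± 0.43, adjusted p 0.0028; LPS+Tβ4 over LPS 2.29 ± 0.43, adjusted p 0.024, and adjusted p 0.033 without the third libraries). That last call ended in 8 of 21 alternatives. Shmt2, the mitochondrial serine hydroxymethyltransferase, averaged 68.0 ± 14.8 CPM in LPS+Tβ4, 33.4 ± 8.41 CPM in LPS and 197 ± 18.5 CPM in saline kidneys and was also higher in LPS+Tβ4 than in LPS (1.02 ± 0.22, adjusted p 0.036; 1.15 ± 0.25 without the third libraries), a call that ended in 11 of 21 alternatives. The serine racemase Srr was the other gene of these 11 that was higher, and 10 of the 11 fell with LPS (90.9%, beside 22.2% of all genes tested). Of 14 further branched-chain and propionate genes 10 fell with LPS (71.4%) and 1 was higher in LPS+Tβ4 than in LPS (7.14%, beside 4.5%). It was the keto acid dehydrogenase kinase Bckdk (0.66 ± 0.14, adjusted p 0.034; 0.69 ± 0.14 without the third libraries), whose call ended in 11 of 21 alternatives.

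Asns, asparagine synthetase, was the 1 gene of these degradation lists that rose with LPS, at 16.1, 15.0 and 21.2 CPM in LPS+Tβ4, 29.8, 22.3 and 17.6 CPM in LPS and 4.28, 8.71 and 4.27 CPM in saline kidneys (LPS over saline 2.01 ± 0.34, adjusted p 0.002). Of 8 tested genes for the synthesis of serine and one-carbon units, 3 rose (37.5%, beside 20.9% of all genes tested) and 2 fell (25.0%, near the 22.2% of all genes) with LPS. Mthfd1l, a mitochondrial formyltetrahydrofolate synthetase, averaged 13.0 ± 1.41 CPM in LPS+Tβ4, 14.5 ± 3.08 CPM in LPS and 1.47 ± 0.49 CPM in saline kidneys (LPS over saline 3.30 ± 0.31, adjusted p 0.00017). Psat1, phosphoserine aminotransferase, averaged 169.8 ± 10.7 CPM in LPS+Tβ4, 91.3 ± 7.90 CPM in LPS and 55.7 ± 8.78 CPM in saline kidneys and was higher both with LPS (0.71 ± 0.14, adjusted p 0.0045) and in LPS+Tβ4 over LPS (0.90 ± 0.14, adjusted p 0.017; 0.91 ± 0.18 without the third libraries, with the call ended in 6 of 21 alternatives). The 5 genes that attach lipoyl and biotin groups to the dehydrogenase and carboxylase complexes had no call in any comparison by edgeR. At an edgeR unadjusted p under 0.05, and likewise by DESeq2 and by limma, 1 of them was higher with LPS. The same readings gave none in LPS+Tβ4 against LPS and 1 in LPS+Tβ4 against saline kidneys. Of all genes, DESeq2 and limma called 49.0% and 40.9% with LPS, and 31.0% and 25.3% in LPS+Tβ4 against saline. The share at the unadjusted p is not given.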

How the data were processed

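Poly(A) RNA of kidney went into dUTP-marked paired-end libraries, per the labels' protocols. The submitters' processing notes name cutadapt 1.9, HISAT2 2.2.1, StringTie 2.1.6, DESeq2, edgeR and GRCm38, without roles; the labels do not state which program counted, or its strand setting and annotation. Per gene, the authors deposited raw counts and FPKM values in each of 9 libraries.

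Counts were scaled by TMM and tested with edgeR 4.0.16 (R 4.3.3), by 2-sided quasi-likelihood F tests in 1 model over all 9 libraries, with no covariate. The 15015 genes that averaged 0.5 FPKM or more were kept and p-values adjusted over them by Benjamini-Hochberg. The SE is the log2 fold change divided by the square root of F. Alternatives were DESeq2 1.42.0, limma 3.58.1 on log2(FPKM + 1) or log2(FPKM + 0.1), other filters, scaling and dispersion, a replicate block, a uroplakin covariate and left-out libraries, 21 in all. The chain was tested on simulated data. The 37 genes, the wider lists and the markers were chosen with earlier results of these data known. All 37 genes are named; of each wider list, only genes among the 4 smallest adjusted p in a comparison, and of those the ones the text needs. A result withheld for evaluation is not reported here.

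Same-numbered libraries of different groups deviated from their group means with correlations of -0.66 to 0.32 over genes, so the numbers were not used as pairs. Motifs were searched in RefSeq promoter windows of GRCm38.p6 with Python 3.11.15, 3 of them in 2 spellings, and matplotlib 3.10.9 drew the figures.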

Additional observations from a re-analysis of the deposited data

How the results depend on the processing

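The LPS against saline count of 32 was 26 to 35 over the 21 alternatives (26 to 33 with 1 library left out), and the LPS+Tβ4 against saline count of 24 was 16 to 30 (16 to 28 with 1 library left out); 24 and 12 of those calls stood in all 21, and those of Auh and Ddo in the first and of Ddo in the second comparison stood in the 20 in which the gene was tested. With 1 library left out, 32.5% to 46.0% of all genes were called in LPS against saline and 14.1% to 30.3% in LPS+Tβ4 against saline. The LPS+Tβ4 against LPS count of 5 (6.83% of all genes called) was 2 without a filter (1.89%) and 8 with DESeq2 (16.3%). It was 0 with the 6 libraries compared alone (0.02%) and 0 with the replicate block (0.0333%). It was 15 without the third LPS and the third LPS+Tβ4 library (12.7%) and 0 to 8 with 1 library left out (0.453% to 17.8%). The causes were not tested. With the replicate block the other counts were 27 (35.2% of all genes called) and 17 (16.5%), but the numbers do not pair the libraries. No called value changed sign. Limma on FPKM moved the median of all genes in LPS against saline to 0.11 or 0.14, and in LPS+Tβ4 against saline to 0.14 or 0.19.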
